A study of Mus musculus with 2 samples.

Results

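*Kcnk2*, *Kcnh1* and *Kcng1* encode pore-forming subunits of potassium channels. They were taken by name from the count columns of a MERFISH experiment, and they are 3 of the 500 genes of its panel. MERFISH reads single RNA molecules in a tissue section by repeated rounds of fluorescent probe hybridization. The series holds 1 coronal section of 10 µm from an E16.5 *Sst-Cre/tdTomato* mouse embryo (control) and 1 from an E16.5 *Sst-Cre/tdTomato/Dnmt1 loxP2* embryo (KO). Both genotypes carry the Cre driver and the tdTomato reporter, and the KO adds floxed alleles of *Dnmt1*, the DNA methyltransferase that Cre removes in cells that make *Sst*. *Dnmt1* was not analysed here, so the counts give no check of the deletion. Because there was 1 section per genotype, differences between sections have no replicate error and no test, and every interval below covers counting error only (at 95% for levels and shares, and wider for ratios, whose intervals pair opposite ends of those of the levels).

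Potassium channels let potassium leave the cell and so set the resting potential and shape how a neuron fires. *Kcnk2* (TREK-1) belongs to the tandem pore-domain family, whose members pass a background leak current. TREK-1 itself responds to stretch, lipids and temperature. *Kcnh1* (EAG1) is the founding mammalian member of the voltage-gated ether-à-go-go family. *Kcng1* encodes an electrically silent subunit, which forms no channel on its own but joins Kv2 subunits and changes their gating. Kv2 subunits were not analysed here.

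All 3 share the potassium selectivity filter, and its coding sequence is shown because it marks what the members have in common and where they differ. The transcript models that the files name for *Kcnk2* and *Kcng1* were read from the GENCODE annotation of GRCm39, and a search of their coding frames for a serine or threonine, then 1 of valine, isoleucine, leucine or threonine, and then glycine, tyrosine or phenylalanine, glycine gave the lines below. Capitals mark the 3 codons of the glycine, aromatic, glycine triplet.
Kcnk2 first pore loop: acaaccataGGATTTGGAaacatctcc
Kcnk2 second pore loop: acgaccattGGATTTGGAgactacgtg
Kcnh1: accagtgtgGGCTTTGGTaacattgcc
Kcng1: acaaccgtaGGCTACGGAgacatggta
The file-named transcript of *Kcnk2* held the motif in both pore loops, with phenylalanine as the aromatic residue in each. The same search of the canonical *Kcnk2* transcript, which codes 404 residues, gave 1 motif, that of the second loop. The canonical transcript of *Kcnh1* had phenylalanine too, whereas *Kcng1* had tyrosine. The *Kcnk2* gene lies on chromosome 1 (188940126 to 189134470, minus strand), and its file-named transcript has 7 exons and 3297 bases. The first motif spans the junction of exons 3 and 4, and the second lies in exon 5 (chr1:188988769-188988795). *Kcnh1* lies on the same chromosome (191873081 to 192192467, plus strand), with its motif in exon 7 of the canonical transcript (chr1:192020059-192020085). The transcript that the files name for *Kcnh1* is a model of 3 exons at the 3′ end of the gene, which codes 98 residues and holds no such motif. *Kcng1* lies on chromosome 2 (168102031 to 168123656, minus strand), with its motif in exon 3 (chr2:168104552-168104578).

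The control section had 108533 segmented cells and the KO section 110004, of which 55231 and 101250 held at least 20 panel transcripts and were used. The KO section was read more deeply, with a median of 109 transcripts per cell used against 34 in the control. Levels are therefore given as transcripts of a gene per 1000000 panel transcripts (CPM). The 50 blank barcodes, which match no gene, averaged 92 CPM in the control against 97.5 CPM in the KO section, and the highest blank reached 262 and 240 CPM. A channel near these levels cannot be told apart from decoding background.

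Each channel had its own place in the forebrain. In the plot of molecules over the sections, *Kcng1* formed a band under the pial surface with a weaker patch beneath it, *Kcnh1* filled an oval in each hemisphere and a few narrow structures near the middle, and *Kcnk2* was spread over the whole brain with brighter strips at the inner cavities of the KO section.

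**Figure D1:**
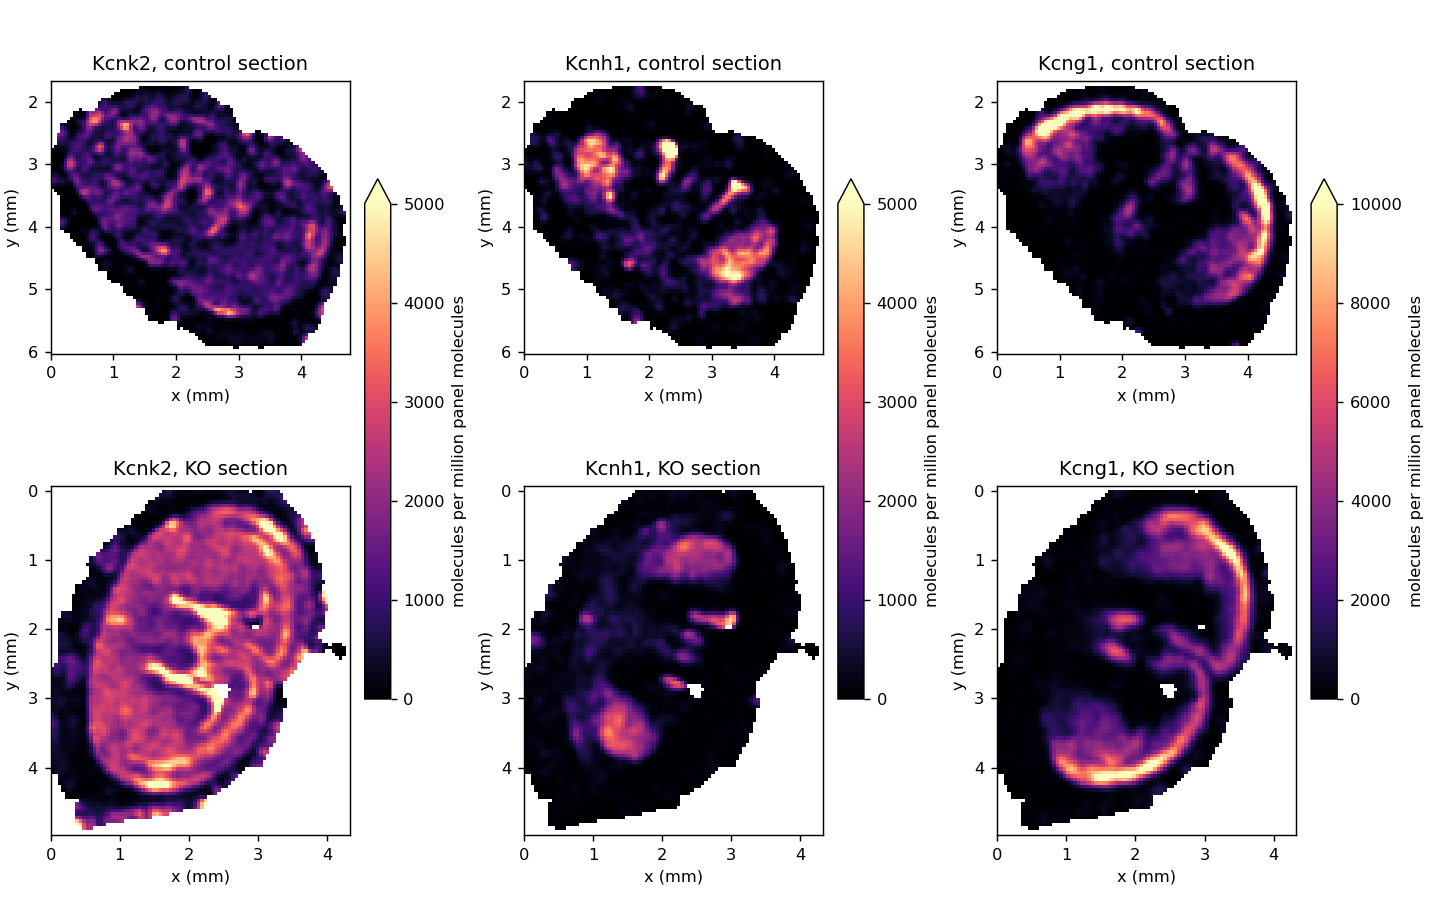
Decoded molecules of each channel per 1000000 panel molecules in bins of 50 µm (smoothed by 1 bin), plotted over x and y in mm for the control (top) and KO (bottom) sections, with 1 colour scale per gene. *Kcng1* follows the cortical wall, *Kcnh1* lies mainly in the subpallium and *Kcnk2* is brighter over most of the KO section.

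*Kcng1* lay mainly, but not only, in the pallial region. The pallial region, drawn from pallial genes such as *Tbr1*, *Slc17a7*, *Fezf2* and *Eomes* against 14 subpallial genes, held 64.9% of its transcripts in the control section against 58.0% in the KO section, beside 23% and 23.5% of all panel transcripts. Its pallial level was 4735 CPM in the control (interval 4552 to 4924) against 5028 CPM in the KO (4950 to 5107). Its subpallial level was 1239 and 1524 CPM, so the pallial over subpallial log2 ratio was 1.93 in the control against 1.72 in the KO. Outside these regions *Kcng1* was at 164 and 203 CPM, under the highest blank there (401 and 373 CPM).

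*Kcnh1* had the reverse distribution. The subpallial region held 72.2% of its transcripts in the control against 80.7% in the KO section, beside 42.9% and 52.9% of all panel transcripts. Its level there was 1210 CPM (1142 to 1280) and 786 CPM (766 to 807). In the pallial region it was at 225 and 165 CPM, below the highest blank (368 and 309 CPM). The pallial over subpallial log2 ratio was -2.42 in the control against -2.25 in the KO section, and with blank counts subtracted -3.06 and -3.48. Since the pallial levels were not above the highest blank, the size of these ratios and their order between sections were not read. Single hemispheres of the KO section gave -3.06 to -1.79.

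*Kcnk2* differed little between these regions. Its pallial and subpallial levels were 1074 and 940 CPM in the control against 2795 and 2319 CPM in the KO section. The log2 ratio of pallial over subpallial was 0.19 in the control, where the interval (-0.02 to 0.40) included 0, and 0.27 (0.22 to 0.32) in the KO section.

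Across the cortical wall the channels also took different positions. The wall was divided into 10 bins of relative depth from the pia (bin 1) to the inner edge of the pallial region (bin 10), leaving out bins within 600 µm of the line between hemispheres. As landmarks, *Reln* peaked in bin 1 of the control and bin 2 of the KO section, *Tbr1* in bins 5 and 6, and *Eomes*, the intermediate progenitor factor, in bin 10 of both. *Kcng1* rose from 235 CPM in bin 1 to 8272 CPM in bin 5 of the control section and from 463 to 9239 CPM in the same bins of the KO section. Bin 1 of the control held only 8 *Kcng1* transcripts (101 to 463 CPM), and that interval reached the highest blank of the region, so no fold is given for it. It fell again towards the inner edge, to 3466 and 2906 CPM in bin 10.

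*Kcnk2* had another profile. In the KO section it was at 3455 CPM in bin 2, 1876 CPM in bin 5 and 4363 CPM in bin 10, so bin 5, where *Kcng1* was highest, held the least. The control section had 1467 CPM in bin 2, 789 CPM in bin 7, its lowest, and 1637 CPM in bin 9, with 458 *Kcnk2* transcripts over all bins. In the control the interval of bin 7 (540 to 1114) overlapped that of bin 2 (1081 to 1945) but not that of bin 9 (1219 to 2153).

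**Figure D2:**
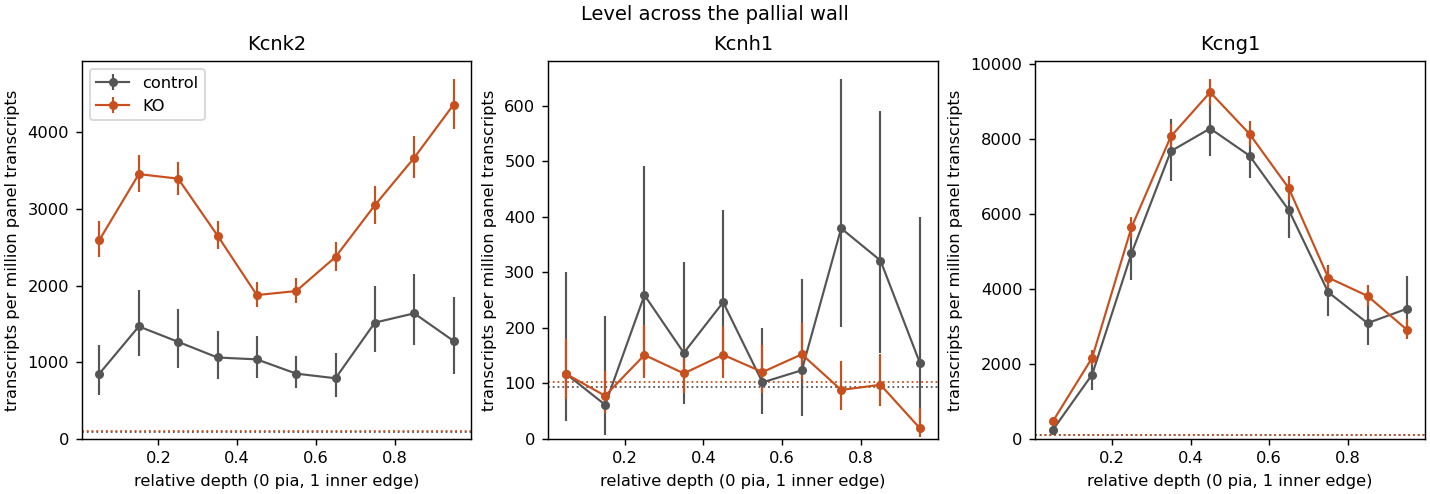
Level of each channel in CPM (y axis, from 0, with its own scale per gene) against relative depth of the cell from the pia (0) to the inner edge of the pallial region (1), for the control (grey) and KO (orange) sections. Bars are exact 95% Poisson intervals and dotted lines the mean blank level of the region: *Kcng1* peaks in the middle bins of the region in both sections, *Kcnk2* dips there in the KO section and *Kcnh1* lies near the blanks.

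The median relative depth of *Kcng1* transcripts was 0.506 in the control against 0.467 in the KO section, a difference of -0.039, while the median of all panel transcripts moved from 0.5 to 0.461. The difference ran from -0.056 to 0.0058 over pairings of single hemispheres and was -0.018 with medial bins kept, so its direction was not the same in every pairing. Medians for *Kcnk2* were 0.501 and 0.459, with intervals that overlapped. *Kcnh1* had only 75 and 270 transcripts in the wall, at 19.0 to 379 CPM per bin, and its profile was not read.

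Cells were clustered on the other panel genes, with the 3 channels left out, which gave 27 clusters. A cluster was named as "like" a cell type where at least 3 of its top 10 genes were markers of that type and no other type had as many, and 16 were named. The other 11 are called by their leading genes.

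*Kcng1* was highest in the deep-layer neuron-like cluster led by *Mc4r*, *Fezf2* and *Ntsr1*, at 9064 CPM in the control (8618 to 9527) against 8177 CPM in the KO section (8008 to 8348). This cluster held 39.9% and 32.7% of all *Kcng1* transcripts, beside 7.36% and 8.15% of all panel transcripts. The subplate or claustral neuron-like cluster led by *Slc17a7*, *Nr4a2* and *C1ql3* came next, at 5042 and 5905 CPM. These first ranks were apart in both sections, with a log2 difference of 0.85 (0.65 to 1.04) in the control against 0.47 (0.40 to 0.54) in the KO section.

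Below them in the control section, 4 clusters at 2711 to 3056 CPM had overlapping intervals with their neighbours. They were the striatal projection neuron-like cluster led by *Drd2* and *Adora2a* (3056 CPM), the cluster led by *Calb2* and *Prokr2* (2898), the cluster like upper-layer or immature projection neurons led by *Sstr2* and *Unc5d* (2807) and the striatal projection neuron-like cluster led by *Rxrg* and *Tac1* (2711). Deep-layer neuron-like cells thus had more *Kcng1* than upper-layer or immature ones by 3.23-fold in the control against 2.41-fold in the KO section. The *Sstr2* cluster lay only in part in the cortex, since 24.4% of its cells in the control against 48.5% in the KO section were in the subpallial region. Among pallial cells of both clusters alone, the levels were 9102 and 3038 CPM in the control against 8178 and 3561 CPM in the KO section, and the interval of the log2 difference ran from 1.31 to 1.86 and from 1.09 to 1.30. In the cluster led by *Htr2c*, *Serpinb1b* and *Lmx1a*, only 1 control and 2 KO transcripts were found. Counts cleared the highest blank in 12 of 27 clusters of the control section and 14 of the KO section.

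*Kcnh1* was highest in that same *Htr2c* cluster, at 7265 CPM in the control (6337 to 8291) against 4667 CPM in the KO section (4185 to 5190). Of its cells, 92.1% in the control against 79.0% in the KO section lay outside both regions. The cluster made up 1.24% of cells used in the control against 0.46% in the KO section. It held 13.2% and 4.94% of all *Kcnh1* transcripts, beside 1.31% and 0.55% of all panel transcripts. The part of this in the whole-section ratio of *Kcnh1* was not tested. The cluster was not named, since fewer than 3 of its top genes were markers of any listed type. *Htr2c* encodes a serotonin receptor and *Lmx1a* a transcription factor of the roof plate. The second rank in both sections was the *Rxrg* and *Tac1* striatal projection neuron-like cluster, with 3561 CPM (3280 to 3859) and 2436 CPM (2350 to 2525). It held 35.7% and 43.7% of all *Kcnh1* transcripts, beside 7.20% and 9.25% of all panel transcripts.

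The striatal projection neuron-like clusters differed from each other in *Kcnh1*. The *Drd2* and *Adora2a* cluster, which carries genes of indirect-pathway neurons, had 1875 CPM in the control against 893 CPM in the KO section. The *Rxrg* and *Tac1* cluster, which carries *Tac1* as direct-pathway neurons do, was higher by a log2 difference of 0.93 (0.55 to 1.31) in the control against 1.45 (1.25 to 1.65) in the KO section. For *Kcng1* the same difference was -0.17 (-0.51 to 0.17) in the control against 0.57 (0.42 to 0.71) in the KO section, so the order of these clusters was not settled by the control counts. The cluster led by *Chat*, the gene of acetylcholine synthesis, had 1711 and 1213 CPM of *Kcnh1*.

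Neurons of deep-layer and of upper-layer or immature type held almost no *Kcnh1*. It was at 46.8 CPM in the control against 36.7 CPM in the KO section in deep-layer neuron-like cells (8 and 40 transcripts), and at 33.5 and 25.9 CPM in upper-layer or immature projection neuron-like cells (3 and 21 transcripts). With the radial glia or astroglia-like cluster led by *Hopx* (63.7 and 31.8 CPM) these had the 3 lowest levels in both sections, and they lay below the mean blank of the same cells (100 and 101 CPM in the deep-layer cluster). Of the clusters that lay mainly in the pallial region, the one led by *Calb2*, *Prokr2* and *Cemip* was above the highest blank in both sections, with 1090 and 989 CPM. The subplate or claustral neuron-like cluster had 647 CPM in the control, above its highest blank of 377, and 318 CPM in the KO section, under its highest blank of 333.

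*Kcnk2* was highest in the radial glia or astroglia-like cluster led by *Aldh1l1*, *Olig2* and *Ednrb*, with 1916 CPM in the control (1641 to 2225) against 5029 CPM in the KO section (4833 to 5232). In the control it did not differ beyond counting error from the next clusters, the *Sstr2* cluster of upper-layer or immature type (1655 CPM) and the unnamed cluster led by *Slc7a11*, *Crabp2* and *Bmp4* (1635 CPM). In the KO section the first rank stood apart, and those clusters followed at 3495 and 3825 CPM. Among glia, the *Aldh1l1* cluster was above the *Hopx* and *Aldoc* cluster by a log2 difference of 1.08 (0.48 to 1.69) in the control against 0.96 (0.82 to 1.10) in the KO section. It was above oligodendrocyte precursor-like cells (920 and 2469 CPM) by 1.06 and 1.03. The cells of the *Aldh1l1* cluster were placed differently in each section. In the control 52.2% were subpallial and 45.3% outside both regions, against 79.9% and 18.5% in the KO section. The part of this in its ratio between sections was not tested.

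The *Sstr2* cluster of upper-layer or immature type had more *Kcnk2* than the deep-layer one (849 and 2112 CPM), by 1.95-fold in the control against 1.66-fold in the KO section. Among the pallial cells of these clusters it was at 1840 and 4398 CPM against 842 and 2113 CPM in the deep-layer cells, which is 2.19-fold and 2.08-fold. This order is the reverse of that of *Kcng1*. Little *Kcnk2* was found in the meningeal or mesenchymal-like cluster led by *Shisa3* and *Thbs2* (97.3 and 281 CPM) and in the unnamed cluster led by *Creb3l1* and *Klf4* (29.5 and 67.6 CPM, from 2 and 26 transcripts). Microglia or macrophage-like cells had 504 CPM in the control (359 to 689), where the interval reached the highest blank of 375, and 1521 CPM in the KO section.

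**Figure D3:**
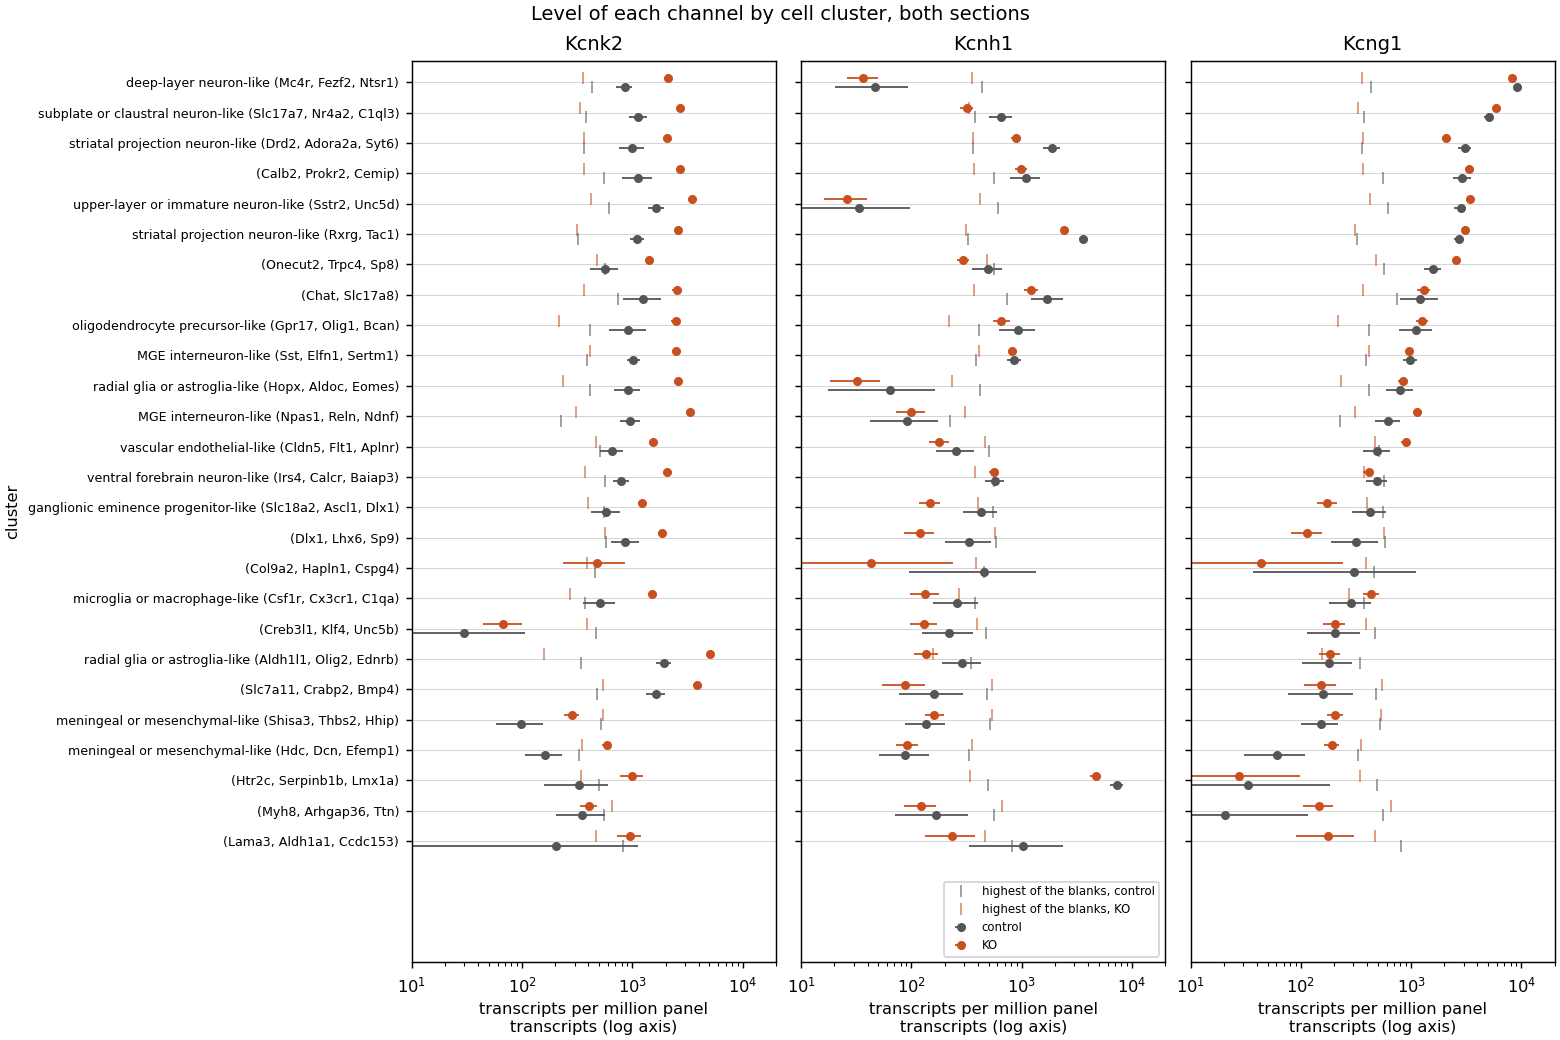
Level of each channel in CPM (x axis, log scale) in the 26 clusters with at least 100 cells per section (y axis, ordered by *Kcng1* in the control), with exact 95% Poisson intervals, for control (grey) and KO (orange) cells. Vertical ticks show the highest blank barcode of the same cells: *Kcng1* leads in deep-layer neuron-like cells, *Kcnh1* in the *Htr2c* and *Rxrg* clusters, and *Kcnk2* in the *Aldh1l1* cluster, and a channel with no transcript in a cluster has no point.

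Over the 26 clusters with at least 100 cells in each section, the profile of each channel, as log2(CPM + 100), was alike in the control and KO sections (Pearson r 0.93 for all 3). Clusters share a section and its depth, so these correlations are descriptions. Most like *Kcnk2* were *Nnat* (r 0.84 in the control against 0.80 in the KO section), *Grm3* (0.80 and 0.71), *Tagln3* (0.78 and 0.70), *Gng2* (0.76 and 0.72) and *Epha5* (0.71 and 0.75). Most like *Kcng1* were *Rbfox1* (0.85 and 0.83), *Cnr1* (0.83 and 0.84), *Opcml* (0.78 and 0.85), *Adora1* (0.82 and 0.81) and *Cbln1* (0.83 and 0.79). Genes among the closest to *Kcnh1* were less alike, with *Nefm* (0.56 and 0.61), *Pdyn* (0.60 and 0.56), *Tunar* (0.46 and 0.64) and *Oprm1* (0.46 and 0.58). Between the channels themselves, r was 0.53 and 0.50 for *Kcnk2* with *Kcng1* and at most 0.15 for *Kcnh1* with either.

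Between the sections, *Kcnk2* was the channel that differed most. Over all cells used its level was 805 CPM in the control (769 to 842) against 2096 CPM in the KO section (2071 to 2120), a ratio of 2.60 or 1.38 on the log2 scale (1.30 to 1.46). *Kcnh1* was at 718 CPM (684 to 754) and 515 CPM (503 to 528), a log2 ratio of -0.48 (-0.58 to -0.37). *Kcng1* was at 1674 CPM (1622 to 1727) and 2035 CPM (2011 to 2059), a log2 ratio of 0.28 (0.22 to 0.34). Only *Kcnk2* passed a 2-fold difference, where 4.4% of the 500 genes were at least 2-fold higher and 1.4% at least 2-fold lower in the KO section. *Kcnk2* ranked 10 of 500 from the highest ratio, *Kcng1* 186 and *Kcnh1* 445, beside a panel median of 0.13. Per cell volume, where the median of all genes moved by 2.17, the ratios were 3.43 for *Kcnk2*, 1.57 for *Kcnh1* and 2.33 for *Kcng1*. Relative to that shift they were 1.25, -0.61 and 0.15.

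In the pallial region the log2 ratios were 1.38 (1.23 to 1.53) for *Kcnk2* and 0.09 (0.01 to 0.17) for *Kcng1*, which became -0.04 relative to the median gene. For *Kcnh1*, not above the highest blank there in either section, the ratio was -0.45 as counted and -1.10 with blank counts subtracted, and its size was not read. Here 4.11% of 487 genes were at least 2-fold higher and *Kcnk2* ranked 6. In the subpallial region the ratios were 1.30 for *Kcnk2*, -0.62 for *Kcnh1* and 0.30 for *Kcng1*, with 4.0% of genes at least 2-fold higher. Outside both regions the *Kcnk2* ratio was 0.98, short of 2-fold and below the 95th percentile of the panel (1.12). It ranked 45 of 492 genes there, of which 8.54% were at least 2-fold higher. By hemisphere, pallial *Kcnk2* was at 885 and 1138 CPM in the control section against 2810 and 2776 CPM in the KO section. Both KO values lay above both control values, but hemispheres share a section and its depth and are not replicates, so this order is only a description. Pallial cells numbered 3718 and 9130 in the control hemispheres and 14560 and 9233 in the KO hemispheres. Pallial *Kcng1* was at 5201 and 4578 CPM in the control hemispheres and 4524 and 5692 CPM in the KO hemispheres, and these ranges overlapped. Pallial *Kcnh1*, at 186 and 239 CPM against 214 and 100 CPM, overlapped too.

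Of the other *Kcn* genes of the panel, 5 are reported, namely *Kcna4*, *Kcng4*, *Kcnj8*, *Kcnab3* and *Kcnip2*. None of the 5 passed a 2-fold difference over the whole section, 2 were higher and 3 lower in the KO section, and their median log2 ratio was -0.13 against 0.13 for the panel. *Kcng4*, which like *Kcng1* encodes a silent subunit, was at 121 and 83.7 CPM, both under the highest blank (262 and 240 CPM), so that its ratio of -0.53 cannot be told apart from decoding background. The range ran from -0.71 for *Kcnj8*, an inward rectifier subunit, to 0.34 for *Kcnab3*, an auxiliary subunit.

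**Figure D4:**
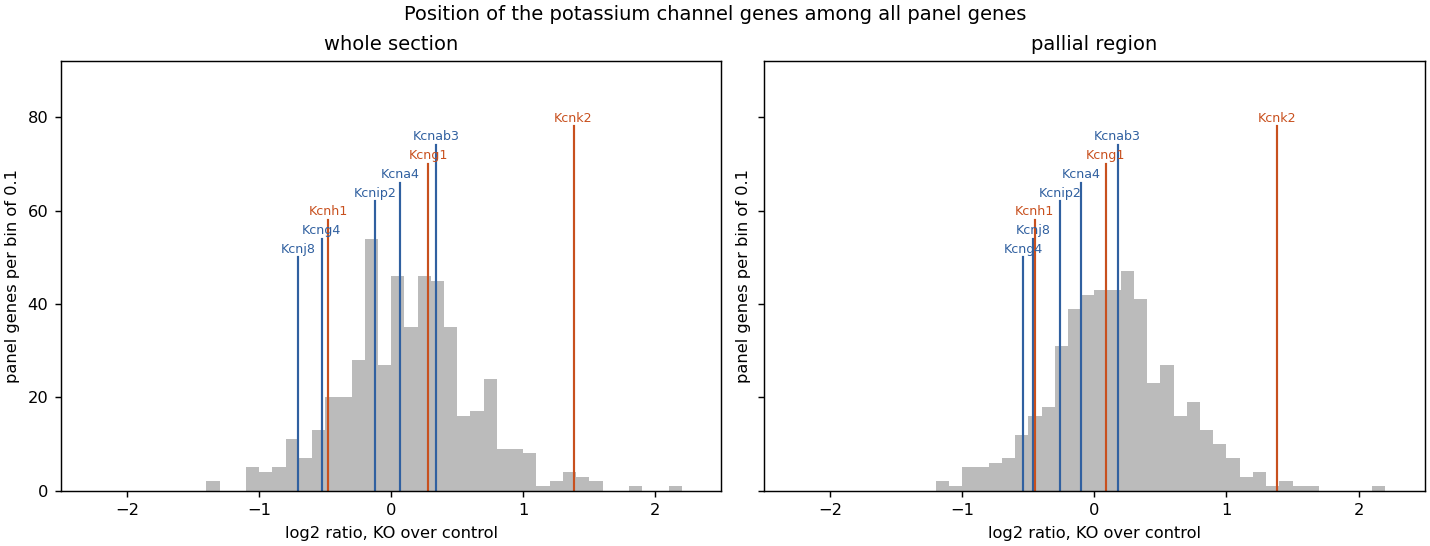
Number of panel genes (y axis) by KO over control log2 ratio (x axis, bins of 0.1) over the whole section (left) and in the pallial region (right), with the 3 channels marked in orange and 5 other *Kcn* genes in blue. *Kcnk2* at 1.38 lies in the upper tail, and the other 7 lie between -0.71 and 0.34.

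*Kcnk2* was higher in the KO section in every cluster with enough counts. Of the 20 clusters with at least 20 control transcripts, all 20 had a ratio past 2-fold, from 1.03 in the *Chat* cluster to 1.87 in the meningeal or mesenchymal-like cluster led by *Hdc* and *Dcn*, with a median of 1.29. In 5 of the 20, the *Hdc* cluster among them (160 CPM from 29 transcripts), the control level was not above the highest blank. In the other 15 the ratio ran from 1.03 to 1.79, the highest being in the *Npas1* and *Reln* cluster. In those 20 clusters 3.09% to 16.7% of genes were at least 2-fold higher, and *Kcnk2* lay above the 95th percentile of the panel in 19. The log2 ratio was 1.31 (1.02 to 1.62) in deep-layer neuron-like, 1.39 (1.12 to 1.67) in *Aldh1l1* radial glia or astroglia-like, 1.24 (0.80 to 1.70) in vascular endothelial-like and 1.59 (1.01 to 2.21) in microglia or macrophage-like cells, of which the last 2 had control levels not above the highest blank. The share of genes at least 2-fold higher in these 4 clusters was 3.09%, 5.86%, 12.3% and 9.02%. It was 5.03% in the *Chat* cluster and 9.65% in the *Hdc* cluster. The other 7 clusters had fewer than 20 control transcripts of *Kcnk2*, and in 1 of them, led by *Vip*, the value was lower in the KO section (656 CPM from 2 transcripts and 478 CPM from 11).

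*Kcnh1* was lower in the KO section in 14 of 15 such clusters, and the interval lay below 0 in 7. The control level was above the highest blank in 8 of the 15, and in these 8 the ratio was below 0, with the interval below 0 in 4. Relative to the median panel gene of each cluster, which lay between -0.29 and 0.10, all 8 were below 0, again with the interval below 0 in 4. *Kcnh1* lay below the 5th percentile of the panel in 2 of the 15. Among clusters with fewer than 20 control transcripts, the *Npas1* cluster (91.8 and 99.1 CPM) and the *Hdc* cluster (88.2 and 91.4 CPM) had slightly higher values in the KO section, none above the highest blank. The log2 ratio was -0.55 (-0.72 to -0.38) in the *Rxrg* and *Tac1* cluster, -1.07 (-1.48 to -0.65) in the *Drd2* and *Adora2a* cluster and -0.64 (-0.99 to -0.29) in the *Htr2c* cluster. Past 2-fold lower were 4 clusters, the *Drd2* cluster, ganglionic eminence progenitor-like cells, subplate or claustral neuron-like cells (-1.02, with 3.8% of genes at least 2-fold lower) and the *Aldh1l1* cluster (-1.09, with 7.11%). In the *Aldh1l1* cluster *Kcnh1* was at 290 and 136 CPM, both not above the highest blank (345 and 157 CPM). In the *Drd2* cluster 17.8% of genes were at least 2-fold lower and in the *Rxrg* cluster 9.46%. The lowest ratio was -1.52 in ganglionic eminence progenitor-like cells, where *Kcnh1* was at 424 CPM in the control against 148 CPM in the KO section, both under the highest blank of these cells (552 and 400 CPM), and where 15.3% of genes were at least 2-fold lower. In the MGE interneuron-like cluster led by *Sst* and *Elfn1* the values were 850 and 814 CPM, a log2 ratio of -0.06 (-0.37 to 0.25).

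*Kcng1* had ratios of either sign. Of 17 clusters, 12 had a higher and 5 a lower value in the KO section, with intervals above 0 in 5 and below 0 in 3. In the 12 clusters whose control level was above the highest blank, 9 were higher and 3 lower, with intervals above 0 in 4 and below 0 in 2. Relative to the median panel gene of each cluster, which lay between -0.29 and 0.33, the intervals of these 12 were above 0 in 5 and below 0 in none. The ratio in its main cluster, deep-layer neuron-like cells, was -0.15 (-0.25 to -0.05), beside a panel median of -0.11 in the same cells, where *Kcng1* ranked 171 of 324 genes. Relative to that median it was -0.03 (-0.14 to 0.07). It was 0.23 (0.06 to 0.40) in subplate or claustral neuron-like and 0.27 (0.04 to 0.51) in upper-layer or immature projection neuron-like cells. In the latter, whose cells were divided differently over the regions in each section, the pallial cells alone gave 0.23 (-0.04 to 0.51), an interval that holds 0. The only cluster past 2-fold was the ganglionic eminence progenitor-like one at -1.28, with 424 and 174 CPM, again under the highest blank, where 15.3% of genes were at least 2-fold lower.

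**Figure D5:**
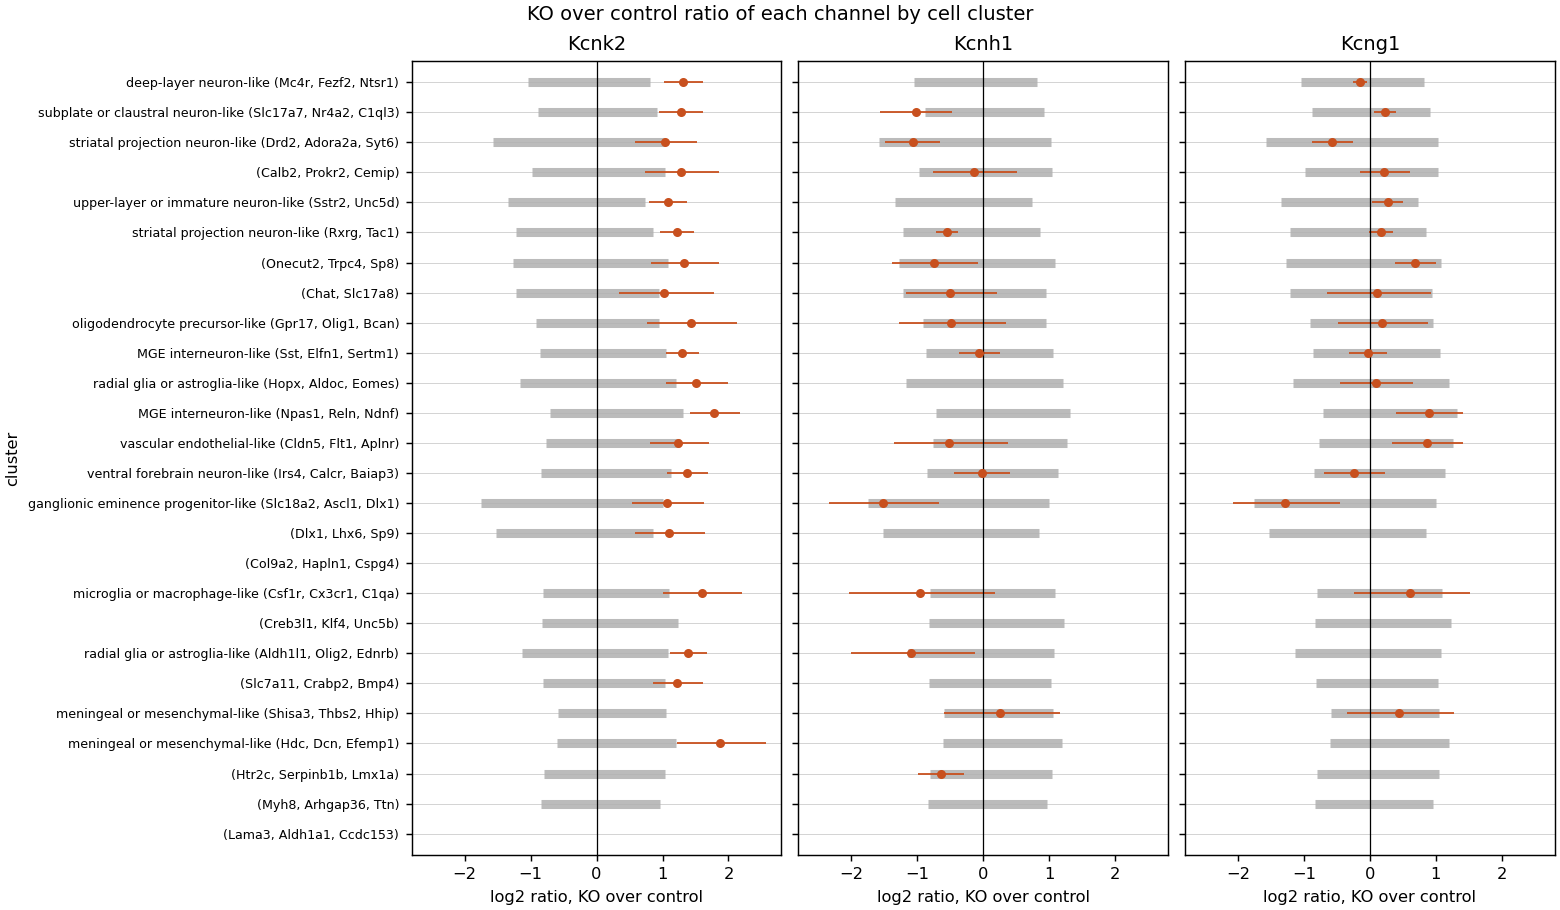
KO over control log2 ratio (x axis) of each channel by cluster (y axis), for clusters with at least 20 control transcripts of the channel, with intervals that pair opposite ends of the exact Poisson intervals. Grey bars span the 5th to 95th percentile of panel genes in the same cells: *Kcnk2* lies right of the bar in nearly all clusters, and *Kcnh1* and *Kcng1* mostly within it.

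Cells that Cre acts on were looked at through *Sst* itself and through *Lhx6*, the factor of interneurons from the medial ganglionic eminence. Cells with at least 2 *Sst* transcripts numbered 278 in the control against 1825 in the KO section, a count that depth affects. In them *Kcnk2* was at 1168 CPM in the control (18 transcripts) against 2420 CPM in the KO section (968 transcripts), a log2 ratio of 1.05 (0.30 to 1.90), an interval that holds the ratio of all cells. With 18 control transcripts, *Kcnk2* and *Kcnh1* missed the minimum of 20 and were not among the 127 genes compared in these cells, of which 5.51% were at least 2-fold higher. *Kcnh1* was at 1168 and 858 CPM, with a ratio of -0.45 (-1.26 to 0.46). *Kcng1* was at 1687 and 1838 CPM, with a ratio of 0.12 (-0.53 to 0.84).

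Cells with *Lhx6* and *Gad1* or *Gad2*, the enzymes of GABA synthesis, numbered 4205 and 17235. Their log2 ratios were 1.30 (1.07 to 1.54) for *Kcnk2*, -0.20 (-0.50 to 0.11) for *Kcnh1* and 0.81 (0.55 to 1.08) for *Kcng1*. In this set 6.28% of genes were at least 2-fold higher. *Kcng1* ranked 46 of 414 genes there, within the 5th to 95th percentile of the panel (-0.73 to 1.03). Its ratio was above the whole-section value of 0.28. Among such cells in the pallial region it was 0.97 (0.53 to 1.44), not set against the panel. Their levels were 1815 CPM in the control against 3559 CPM in the KO section. Cells of the whole set without any *Sst* transcript had a *Kcng1* ratio of 0.82 (0.53 to 1.12). Because 1 transcript of *Lhx6* places a cell in the set, the deeper KO section can place more cells of other types in it, and the part of this in the ratio was not tested. Clusters named MGE interneuron-like differed in *Kcng1*. The ratio was -0.03 (-0.31 to 0.26) in the one led by *Sst* and 0.90 (0.40 to 1.41) in the one led by *Npas1*. The top 10 genes of the *Npas1* cluster held 4 MGE interneuron and 3 Cajal-Retzius markers, and neither *Lhx6* nor *Sst*. Its kinship with the cells that Cre acts on is thus unsure. The *Sst* cluster held 4606 control and 7226 KO cells, more than had at least 2 *Sst* transcripts in either section, so it is not limited to such cells. An unnamed cluster with *Lhx6* among its leading genes had 317 CPM in the control against 114 CPM in the KO section. Neither level was above the highest blank.

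Shares of cells were compared after thinning every cell to 26 transcripts, and 13346 cells of the control and 2056 of the KO section were too shallow for it. A *Kcnk2* transcript was then found in 2.08% of control cells (exact binomial interval 1.94 to 2.22) and 5.32% of KO cells (5.18 to 5.46), against 3.22% and 20.9% before thinning. In the *Aldh1l1* cluster the thinned shares were 4.28% and 12.1%, and in microglia or macrophage-like cells 1.26% and 4.24%. Since *Kcnk2* was above the highest blank in the latter in the KO section, they give no background for this gene. *Kcnh1* was found in 1.94% and 1.21% of thinned cells. It reached 18.1% and 11.1% in the *Htr2c* cluster and 8.83% and 5.66% in the *Rxrg* cluster, beside 0.503% and 0.319% in microglia or macrophage-like cells, where *Kcnh1* was not above the highest blank in either section. *Kcng1* was found in 4.14% and 4.70% of thinned cells, in 20.3% and 17.2% of deep-layer neuron-like cells, and in 0.838% and 1.05% of microglia or macrophage-like cells, which give no background for *Kcng1* either, since its KO level there (432 CPM) was above the highest blank. Before thinning, the median depth was 45 and 134 transcripts in microglia or macrophage-like cells, and 32 and 100 in deep-layer neuron-like cells.

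Molecules were also counted wherever they lay. Outside cell boundaries were 17.2% of *Kcnk2* molecules in the control against 16.8% in the KO section, beside 18.6% and 18.4% of all panel molecules. For *Kcng1* these shares were 11.5% and 14.1%. The lowest of the 7 imaging planes held 34.9% of *Kcnk2* molecules in the control against 21.4% in the KO section, where all panel genes had 29.0% and 20.9%. With that plane alone the whole-section log2 ratio of *Kcnk2* was 1.10. Imaging depth and genotype cannot be told apart with 1 section each.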

How the data were processed

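RNA was measured by MERFISH on the Vizgen MERSCOPE platform in 1 control and 1 KO section. The authors decoded the images and segmented the cells with the instrument's software and deposited, per section, whole-number counts of decoded molecules per cell for 500 genes and 50 blank barcodes, with cell positions and volumes and the position and imaging plane of each molecule. Probe sequences were not used here. All per-sample columns were assigned.

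Only cells holding 20 or more panel transcripts were used, which were 50.9% of the control and 92% of the KO cells. Levels are summed counts per 1000000 panel transcripts, with exact Poisson intervals at 95%. Ratio intervals pair opposite ends of these and are wider than 95% intervals. Shares have exact binomial (Clopper-Pearson) intervals and were taken after drawing 26 transcripts per cell. Deeper reading narrows the KO intervals, and all cover counting error only. No test between sections was possible. Nothing was done about doublets or overlapping cells beyond the segmentation.

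Regions were drawn on a grid of 25 µm from the share of pallial over pallial plus subpallial transcripts, smoothed with an SD of 50 µm, at a threshold of 50%. Sections were integrated in Seurat by reciprocal principal component analysis (30 components, resolution 0.8) without the 3 channels, so clusters are rebuilt and not the authors' annotation. Profiles of panel genes at or above the median level were compared by Pearson correlation over clusters, and the 5 most alike are named, with the 3 channels, other *Kcn* genes and the leading genes of clusters. A few genes that this rule names are not reported here. Ratios for the panel needed 20 control transcripts. The script for ratios was tested on simulated data. The members and gene lists were chosen with earlier results of these data known. Regions without *Meis2*, medial bins kept, pallial cells of a cluster alone and ratios relative to the median gene of a cluster are alternatives added after seeing the data. Tools were Python 3.11.15, numpy 2.4.6, scipy 1.17.1, pandas 2.3.3, matplotlib 3.10.9, R 4.3.3 and Seurat 5.3.0.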

Additional observations from a re-analysis of the deposited data

Results flagged for a closer look

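The KO over control log2 ratio of *Kcng1* had opposite signs in clusters of the same sections, with intervals that excluded 0. It was below 0 in the clusters led by *Mc4r* (-0.15), *Drd2* (-0.57) and *Slc18a2* (-1.28). It was above 0 in the clusters led by *Slc17a7* (0.23), *Sstr2* (0.27), *Onecut2* (0.69), *Cldn5* (0.86) and *Npas1* (0.90). In the *Cldn5* cluster the control level was not above the highest blank, and in the *Slc18a2* cluster neither section's was. The median panel gene lay on the same side of 0 in several of these clusters, at -0.11 in *Mc4r*, -0.29 in *Drd2*, -0.14 in *Slc18a2*, 0.11 in *Onecut2*, 0.26 in *Cldn5* and 0.33 in *Npas1*, and on the other side in *Sstr2* (-0.29). Relative to it the *Mc4r* value was -0.03 (-0.14 to 0.07) and the *Drd2* value -0.27 (-0.58 to 0.04), so the *Slc18a2* cluster, under the highest blank, was the only one of the 8 with an interval below 0. The 5 higher clusters kept intervals above 0 relative to the median gene, at 0.23 (0.07 to 0.41) in *Slc17a7*, 0.56 (0.32 to 0.79) in *Sstr2*, 0.58 (0.27 to 0.90) in *Onecut2*, 0.60 (0.08 to 1.15) in *Cldn5* and 0.57 (0.07 to 1.09) in *Npas1*. Among pallial cells alone the *Sstr2* value, not set against that median, was 0.23, with an interval that holds 0. With 1 section per genotype the difference between clusters was not tested.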

How the results depend on the processing

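Of 147 values of the main comparisons recomputed under another setting, 90 moved by less than their counting interval and 49 moved further. Another 8 were classed as reversed in sign, 2 of them only by the shift of all genes per cell volume. Some values given below also lie on the other side of 0 from the main value but were not among these 8. The cause was not tested. No paired analysis was possible because each genotype has 1 section and no replicate number. All ratios in this section, those of shares included, are on the log2 scale. For *Kcnk2*, the whole-section ratio was 1.63 with a minimum of 50 transcripts per cell, 1.10 in the lowest imaging plane, 1.25 relative to the median gene (a shift of 0.13), 3.43 per cell volume, 1.49 with blank counts subtracted and 1.29 to 1.48 over pairings of single hemispheres. Its pallial ratio was 1.18 in the lowest plane, 3.53 per volume (median of all genes 2.28) and at most 1.67 over hemispheres. Its pallial over subpallial ratio in the control was -0.10 with a minimum of 50 and -0.13 in 1 hemisphere, and in the KO 0.39 without *Meis2*. Its depth difference was -0.091 with the KO thinned and 0.0082 with medial bins kept. Its log2 share ratio was 2.20 for at least 2 transcripts per thinned cell (0.0597% and 0.274% of cells) and 2.69 unthinned (3.22% and 20.9%).

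For *Kcnh1*, the whole-section ratio was -0.61 relative to the median gene, -0.58 with blanks subtracted, -0.68 to -0.35 over hemispheres and 1.57 per volume. That change of sign follows from the shift of all genes per volume (median 2.17), relative to which the value was -0.61. Its pallial ratio was -1.10 with blanks subtracted, -1.25 to 0.20 over hemispheres and 1.70 per volume (-0.58 relative to the median of all genes). Its pallial over subpallial ratio was -3.06 in the control and -3.48 in the KO with blanks subtracted, and in the KO -3.06 to -1.79 over hemispheres and -2.70 without *Meis2*. Its share ratio was -1.48 for at least 2 transcripts and reversed to 0.98 unthinned.

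For *Kcng1*, the whole-section ratio was 0.67 with a minimum of 50, 0.15 relative to the median gene, 2.33 per volume and 0.20 to 0.41 over hemispheres. Its pallial ratio was 0.45 with a minimum of 50, 2.24 per volume, -0.044 relative to the median gene and -0.20 to 0.31 over hemispheres. Its pallial over subpallial ratio in the control was 1.48 with a minimum of 50, 2.21 in 1 hemisphere and 1.75 without *Meis2*, and in the KO 1.79 with blanks subtracted, 1.56 to 1.91 over hemispheres and 1.55 without *Meis2*. Its depth difference was -0.047 with a minimum of 50, -0.056 to 0.0058 over hemispheres, -0.048 without *Meis2* and -0.018 with medial bins kept. Its share ratio was -0.089 for at least 2 transcripts and 1.45 unthinned.

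Ratios by cluster moved little in 196 of 205 values relative to the median gene of the cluster, with pallial cells alone or under other clusterings (34, 26 and 22 clusters, matched where they overlapped by at least 0.3, others giving no value). All 79 for *Kcnk2* were among the 196, and the values that moved were 6 for *Kcng1* and 3 for *Kcnh1*. The 22 clusters with the KO thinned to the control depth had a median overlap of 0.53 with the main ones (lowest 0.0088). This was 0.91 for the 34 at resolution 1.2 and 0.89 for the 26 with the channels included. The values cover only clusters that matched, so their stability to depth was not checked for the others. Relative to the median gene, *Kcng1* moved to -0.03 in the *Mc4r* and 0.56 in the *Sstr2* cluster. In the *Rxrg* cluster at resolution 1.2, *Kcng1* was -0.47 in place of 0.17. *Kcnk2* and *Kcng1* in the control cortex rest on 572 and 2522 transcripts, and the 120 of *Kcnh1* limit what can be said of it there.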
